A study of Homo sapiens with 33 samples.

Results

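The genes described here are 10 transcripts of the AP-1 and immediate early response, chosen by name: FOS, FOSB, FOSL1, FOSL2, JUN, JUNB, JUND, EGR1, IER2 and IER3. All 10 had an entry in each of 3 tables of knockout over control that the authors deposited, which together hold 15149 gene names. RNA had been sequenced from 33 libraries of 2 human cancer lines, A-375 (a melanoma line with an activating BRAF mutation, 20 libraries) and UM-UC-3 (derived from a bladder carcinoma, 13 libraries). In these cells CRISPR-Cas9 had removed parts of GABPB1, which encodes the B1 subunit of the ETS-family transcription factor GABP. The A-375 total knockout joined 4 libraries in which the exons from 2 through 9 were deleted (B1KO) and 8 in which exon 2 was deleted (B1X2KO), from 9 numbered clones. The A-375 long-form knockout (B1LKO, exon 9 deleted) had 2 libraries from 2 clones. The UM-UC-3 total knockout joined 4 B1KO and 5 B1X2KO libraries from 8 clones. The controls were 2 parental and 4 ROSA26_KO libraries in A-375, and 1 parental and 3 ROSA26_KO libraries in UM-UC-3, where ROSA26_KO cells had been edited at a locus used as a neutral target. Knockout and ROSA26_KO lines were single sorted clones, while parental cells had not been edited, so clonal growth and editing cannot be told apart from the deletion wherever parental cells alone were the control.

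AP-1 is a dimer of basic leucine zipper proteins. FOS-family proteins (FOS, FOSB, FOSL1, FOSL2) bind DNA only paired with a partner such as a JUN-family protein (JUN, JUNB, JUND), whereas JUN proteins can also pair with each other. Growth factors and stress switch on FOS, FOSB, JUNB, EGR1, IER2 and IER3 within minutes, through MAP kinases that act on SRF and its ETS-family cofactors and on CREB at promoters that need no new protein synthesis. FOSL1 and FOSL2 follow later and persist where ERK signalling is sustained, as in many BRAF-mutant melanomas.

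Each value is a fitted log2 fold change of knockout over control with its standard error (SE), and "called" means a Benjamini-Hochberg adjusted p of the authors' DESeq2 Wald test under 0.05 over all genes of that table. The tables give 1 value per gene and no value per library, so the spread between replicates appears only through the SE, and the depth of each library is unknown. Their names set the knockout over parental cells, but whether ROSA26_KO libraries also entered a fit is not known here, so the UM-UC-3 values may rest on 1 control library and the A-375 tables may share their controls. Several clones gave 2 libraries, and p-values then measure in part the spread between libraries of 1 clone. SOX10, a melanocyte lineage factor, stood at the 99.2 percentile of mean counts in the A-375 total-knockout table and at the 10.4 percentile in that of UM-UC-3. S100B and MITF were at the 77.8 and 55.9 percentiles in that A-375 table and the 4.70 and 24.7 percentiles in UM-UC-3. The pigment genes PMEL and TYRP1 were low in the same A-375 table, at the 3.01 and 0.942 percentiles, MLANA was at the 1.44 percentile in the long-form table, and DCT had a value in UM-UC-3 only. The keratins KRT8 and KRT18 stood at the 66.1 and 91.9 percentiles in UM-UC-3, and at the 67.5 and 95.1 percentiles in the A-375 total-knockout table, so these keratins did not set the bladder line apart. Of 5 urothelial and epithelial markers measured in UM-UC-3, 3 (KRT7, GATA3 and PPARG) were called higher in the knockout and KRT18 lower (17% and 14.2% of all genes), and 0 of 5 were called in either A-375 table. Of 6 melanocyte markers measured in UM-UC-3, MITF (1.47 ± 0.30, adjusted p 2.37e-05) and DCT (2.20 ± 0.54, adjusted p 0.000504) were called higher by the authors' deposited table (17% of all genes were). A log2 change above 0 was seen in 5 of the 6 and in 52.7% of all genes. DCT rose from an implied control level of 25.6 normalized counts with parental controls. Whether these markers bear on the values below was not tested. The targeted gene has up to 4 entries per table, which the authors named GABPB1L, GABPB1S, GABPB1L-DEX2 and GABPB1S-DEX2, and they moved in opposite directions. By the authors' deposited table for each total knockout, GABPB1L (-10.60 in A-375, -12.60 in UM-UC-3) and GABPB1S (-9.81 and -9.86) were called lower, while GABPB1L-DEX2 (13.61 and 11.82) and GABPB1S-DEX2 (12.36 and 10.15) were called higher. With parental controls, GABPB1L went from 909 to 0.586 and GABPB1L-DEX2 from 0.0573 to 718 implied normalized counts in the A-375 total knockout. The same entries went from 2705 to 0.437 and from 0.246 to 887 in UM-UC-3, so RNA assigned to this gene was still present in the total knockouts. With all control libraries counted, the GABPB1L control level would be 390 in the A-375 total table and 880 in UM-UC-3. For the long-form knockout, GABPB1L (-12.79) and GABPB1S-DEX2 (-12.00) were lower and GABPB1S (13.95) was higher by the authors' deposited table. There GABPB1S went from 0.129 to 2040 and GABPB1S-DEX2 from 888 to 0.216 implied normalized counts, whereas the controls of the A-375 total table held 525 of GABPB1S and 0.0571 of GABPB1S-DEX2. With all controls counted, GABPB1S would stand at 4080 in the long-form knockout and at 226 in the total-table controls. The levels of these entries depend on which controls entered, but neither choice closed the gap between the controls of the A-375 tables. With all controls counted, the long-form controls would hold 0.257 of GABPB1S and 592 of GABPB1S-DEX2. The total-table controls would then hold 0.0734 of GABPB1S-DEX2. Why the entries differ between these tables was not tested. Fitted sizes against a group near 0 are no measure of the fold.

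The 3 knockouts differed in which of the 10 genes were called. In the A-375 total knockout the authors' DESeq2 test called 0 of 10 (10.8% of all genes were called there), and 2 of 10, JUN and IER3, had an unadjusted p under 0.05 (25.3% of all genes). In the A-375 long-form knockout FOS and IER3 fell, 2 of 10 against 0.904% of all genes called and 0.664% called lower. In the UM-UC-3 total knockout FOS, FOSL1 and IER2 fell, 3 of 10 against 31.1% of all genes called and 14.2% called lower. The share called in UM-UC-3 was near that of all genes. No member was called higher in any of the 3 tables (5.07%, 0.24% and 17% of all genes were). Read by an unadjusted p under 0.05, 3 of 10 passed in the long-form table (10.9% of all genes) and 4 of 10 in UM-UC-3 (41.2%). The deposited q-value under 0.05 called 1, 2 and 4 of the 10 in the A-375 total, long-form and UM-UC-3 tables, against 15.2%, 0.961% and 41.4% of all genes. An adjusted p under 0.1 gave the same 1, 2 and 4, against 16.7%, 1.35% and 38.6%. With a change of at least 2-fold required as well, 0, 2 and 1 were called, against 5.07%, 0.523% and 6.72%. The median log2 change of the 10 genes was 0.39 for the A-375 total, -0.37 for the long-form and -0.40 for the UM-UC-3 knockout, beside -0.05, 0.02 and 0.03 over all genes.

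**Figure D1:**
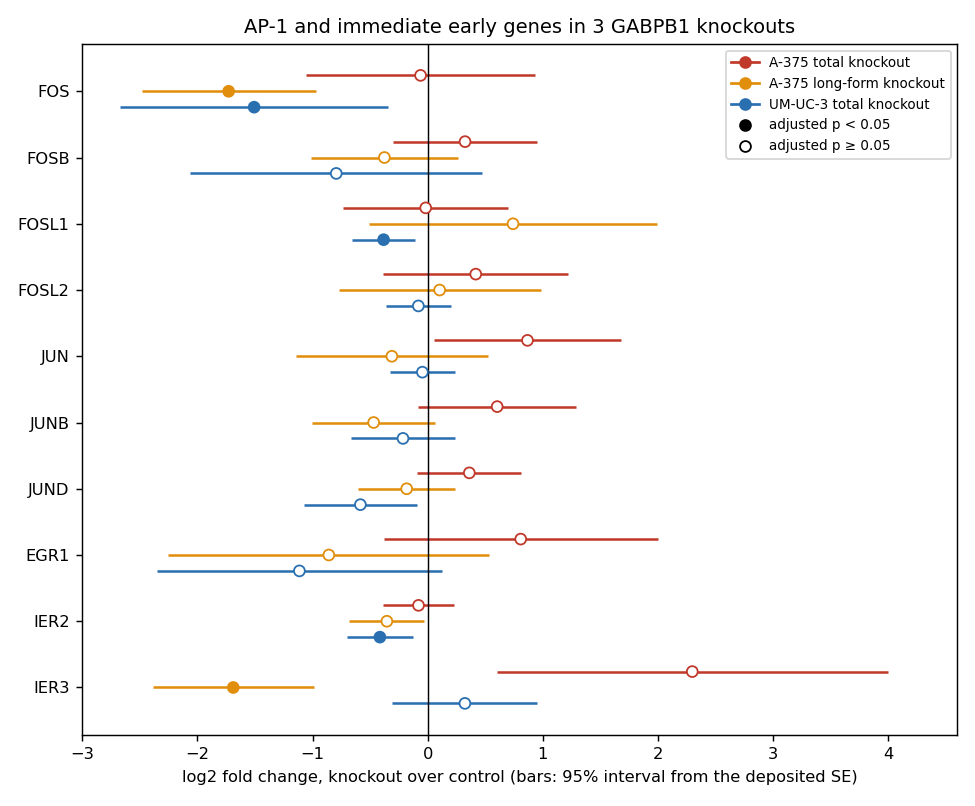
Log2 fold change of knockout over control (horizontal axis) for each of the 10 genes in the A-375 total, A-375 long-form and UM-UC-3 total knockouts; bars are 95% intervals from the deposited SE and filled points have an adjusted p under 0.05. FOS lies at -1.73 and -1.51 in the A-375 long-form and UM-UC-3 knockouts and at -0.06 in the A-375 total knockout, and IER3 lies on opposite sides of 0 in the A-375 tables.

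The stretches before the starts of FOS, IER2 and EGR1 are shown because FOS and IER2 were called and EGR1 is switched on through SRF. RefSeq promoters on GRCh38.p14 matched 8 of the 10 genes by symbol, all but FOSL1 and IER3. The 250 bases before each start were searched on both strands. Capitals mark the CRE half-site TGACG (or its reverse, CGTCA) in all 3 stretches, the ETS site CGGAAG (or CTTCCG) in IER2, and the CArG box, the site of SRF, in EGR1. The 3 genes are on the plus strand, and the stretches lie at chr14:75278678-75278773, chr19:13150261-13150410 and chr5:138465329-138465478, before the first annotated exon. The longer ETS site CCGGAAG, which holds the shorter one, is part of the capitals nearest the start of IER2.
FOS: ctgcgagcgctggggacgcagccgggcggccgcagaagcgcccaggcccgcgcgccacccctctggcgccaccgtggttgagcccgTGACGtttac
IER2: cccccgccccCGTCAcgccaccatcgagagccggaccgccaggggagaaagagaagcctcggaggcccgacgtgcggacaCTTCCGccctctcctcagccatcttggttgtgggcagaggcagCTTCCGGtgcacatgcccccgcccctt
EGR1: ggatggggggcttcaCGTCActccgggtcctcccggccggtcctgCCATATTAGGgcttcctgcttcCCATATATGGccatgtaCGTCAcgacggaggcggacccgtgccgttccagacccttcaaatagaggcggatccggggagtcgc

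A CRE half-site, the core of the site read by CREB and ATF proteins, was present in 8 of 8 members, against 21.2% of 35116 RefSeq promoters and 30.4% of 9355 whose gene was measured in all 3 tables. Other immediate early genes held it in 13 of 26. In FOS it began 64 bases before the start and in FOSB 60 bases before it. The full palindrome TGACGTCA, which holds 2 overlapping half-sites, was seen in JUND alone of the 8 (1.65% of all promoters and 2.99% of those measured). The ETS site CGGAAG was matched in IER2, 70 and 27 bases before its start, and in JUNB, at 53 bases. The other 6 had no match to it (16.5% of all promoters and 28.7% of those measured had one). ETS sites without these letters were not searched. The longer ETS site was found in IER2 alone of the 8 (8.52% of all promoters and 16.4% of those measured). Within the searched window the CArG box was found in EGR1 alone (1.16% and 0.973%), at 105 and 83 bases. Bases further upstream were not searched, so a CArG box lying there, in FOS or another member, would be missed. The AP-1 site TGANTCA was in 0 of 8 windows (6.57% of all promoters and 3.73% of those measured). The GC box GGGCGG was in 6 of 8 (42.6% of all promoters and 68.7% of those measured). A match is a run of letters and was not tied to binding here.

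**Figure D2:**
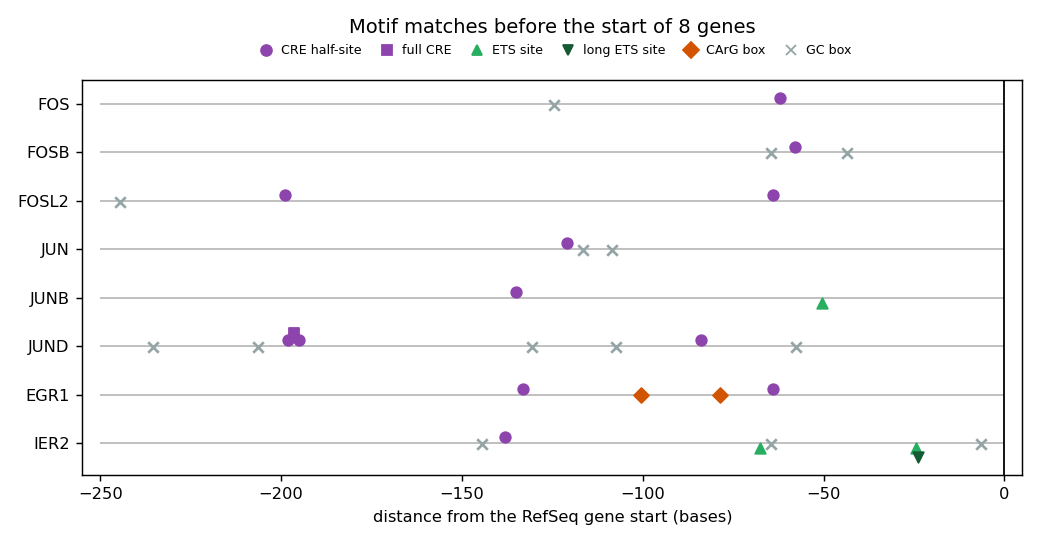
Positions of motif matches in the 250 bases before the RefSeq start of 8 genes (horizontal axis, bases from the start; markers are match centres, shifted vertically only to keep them apart). A CRE half-site is present in each of the 8, and the matches to the ETS site CGGAAG are in JUNB and IER2.

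Across all measured promoters the longer ETS site went with lower calls in the total knockouts. In UM-UC-3, 25.0% of 1535 genes with CCGGAAG in the window were called lower and 11.7% higher, against 13.1% and 18.0% of 7820 without it. For the A-375 total knockout, 9.84% with the site and 5.19% without it were lower. In the long-form knockout the shares were 0.391% and 0.435%. Base composition and expression level were not matched between promoters with and without the site. IER2 is 1 of the genes with the site that were lower in UM-UC-3, and it was not called in the A-375 total knockout. FOS, also called lower in UM-UC-3, had no match to either ETS site, and JUNB, with the shorter one, was not called. Whether the site bears on the IER2 value was not tested. For the CRE half-site in UM-UC-3, 430 of 2845 genes with it (15.1%) and 978 of 6510 without it were called lower.

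FOS (ENSG00000170345, chromosome 14, 75278774 to 75282230 on GRCh38, 4 exons), the founding AP-1 subunit, was the gene called in 2 tables. In the authors' deposited table for the A-375 long-form knockout it fell by 1.73 ± 0.38 (SE) on the log2 scale, with an adjusted p of 0.00336, to 0.302 of the control level. In UM-UC-3 it fell by 1.51 ± 0.59 on the log2 scale (authors' deposited table, adjusted p 0.0388), to 0.352 of the control level. The A-375 total knockout gave -0.06 ± 0.51 (authors' deposited table, adjusted p 0.955), with a 95% interval of 0.480-fold to 1.91-fold. A level per group follows from 3 quantities: the fold change, the mean normalized count over a table's libraries, and how many libraries each group had. With the parental libraries as controls, FOS stood at 2082 normalized counts in the controls and 628 in the A-375 long-form knockout (1642 and 496 if all 6 A-375 control libraries entered). In UM-UC-3 the implied levels were 3622 in the control and 1274 in the knockout, and in the A-375 total knockout 649.7 and 622. The tables were normalized separately, so these counts compare groups within a table only.

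FOSB, the paralog induced alongside FOS, was called in none of the 3. Its log2 changes were 0.32 ± 0.32 for the A-375 total, -0.38 ± 0.33 for the long-form and -0.79 ± 0.65 for the UM-UC-3 knockout as given by the authors' deposited table for each. FOSB lies at chromosome 19, 45467995 to 45475179. The UM-UC-3 interval reached from 0.239-fold to 1.39-fold, which a fall as large as that of FOS would fit within.

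FOSL1 encodes FRA-1, the FOS-family protein associated with sustained ERK signalling and invasion. It was the most abundant of the 10 per kilobase of transcript in every control group here, at 3114 normalized counts per kilobase for the A-375 total table, 7834 for the long-form table and 11227 for UM-UC-3. In UM-UC-3 it fell by 0.38 ± 0.14 on the log2 scale (authors' deposited table, adjusted p 0.0248), to 0.767 of the control. The A-375 total knockout gave -0.02 ± 0.37 and the long-form knockout 0.74 ± 0.64 (authors' deposited table for each, adjusted p 0.984 and 0.678). The long-form SE was at the 92.4 percentile of all genes although the mean count was 17464, and its interval ran from 0.704-fold to 3.97-fold. FOSL1 lies at chromosome 11, 65892049 to 65900573.

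FOSL2 (FRA-2; chromosome 2, 28392448 to 28417312) was called in none. Its log2 changes were 0.42 ± 0.41, 0.10 ± 0.45 and -0.08 ± 0.14 for the A-375 total, A-375 long-form and UM-UC-3 knockouts as given by the authors' deposited table for each. The UM-UC-3 value is the tightest of these and its interval spans 0.779-fold to 1.15-fold.

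FOSL1 made up most of the FOS family at the RNA level. With parental controls, FOSL1 made up 85.9% of the summed FOS-family counts per kilobase in the A-375 total-table controls, 83.3% in the long-form controls and 74.5% in UM-UC-3. FOS supplied 8.30%, 10.3% and 11.1% of those sums. In the knockouts the FOS share was 7.93% for the A-375 total, 2.09% for the long-form and 5.29% for the UM-UC-3 knockout. FOSL2 was 2.53% of the family in A-375 total-table controls and 12.9% in UM-UC-3 controls. These shares carry no error and are RNA, not protein.

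**Figure D3:**
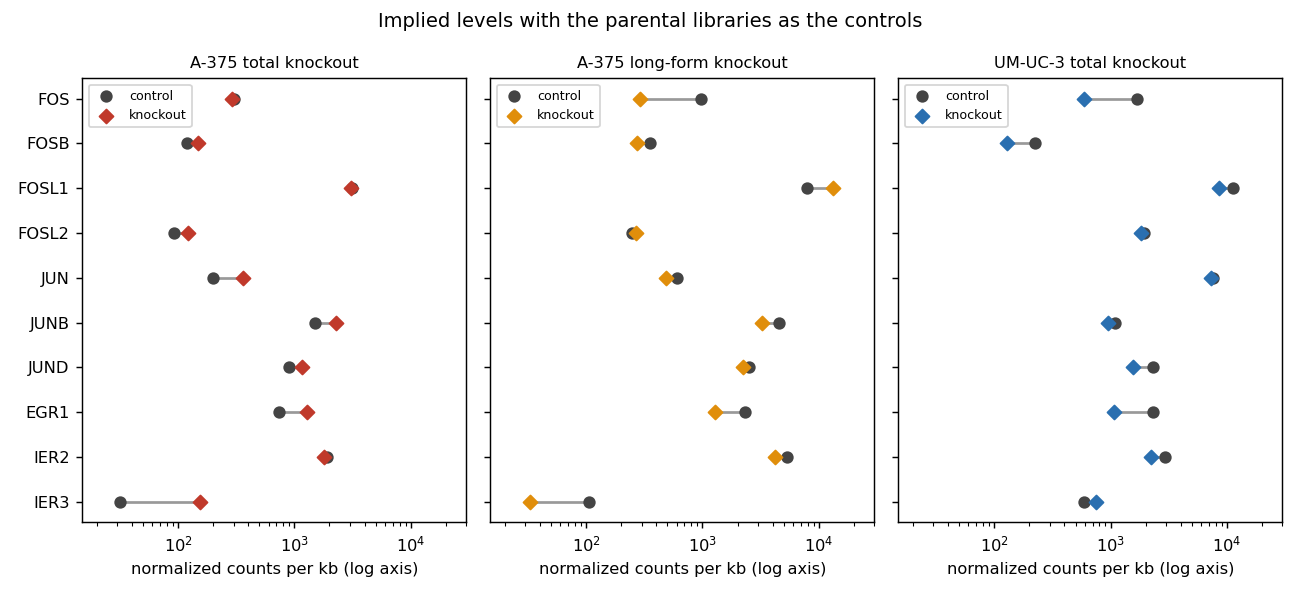
Implied level per group of each gene in normalized counts per kilobase of transcript (log axis) for the 3 tables, with parental libraries taken as controls; circles are controls and diamonds knockouts, and no error can be shown. FOS moves from 965 to 291 for the A-375 long-form table and from 1679 to 591 for UM-UC-3, and FOSL1 is the highest gene in every control group.

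JUN (chromosome 1, 58780788 to 58784327, a single exon) encodes the main partner of FOS proteins. It was not called in any table. Its A-375 total-knockout log2 change was 0.87 ± 0.41 (unadjusted p 0.0359, authors' deposited table, adjusted p 0.161). The long-form and UM-UC-3 values were -0.31 ± 0.42 and -0.05 ± 0.14 as given by the authors' deposited table for each. The UM-UC-3 interval was 0.797-fold to 1.18-fold, at a mean normalized count of 25924.

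JUNB, a partner that is induced early and opposes JUN at some promoters, lies at chromosome 19, 12791496 to 12793315. Its log2 change was 0.60 ± 0.35 for the A-375 total, -0.47 ± 0.27 for the long-form and -0.21 ± 0.23 for the UM-UC-3 knockout as given by the authors' deposited table for each, none called. An exon of HOOK2, a microtubule linker, overlaps JUNB by 259 bases on the opposite strand. The sources used here do not say whether reads were counted by strand, so JUNB is uncertain to that extent. HOOK2 rose by 0.58 ± 0.19 in UM-UC-3 (authors' deposited table, adjusted p 0.0118), and its part in the JUNB value was not tested.

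JUND (chromosome 19, 18279760 to 18281622), the JUN protein found in resting cells, came close to the threshold in UM-UC-3. Its log2 change there was -0.58 ± 0.25 (authors' deposited table, adjusted p 0.061), and it passed once the table was centred on its median (adjusted p 0.047). The A-375 total value was 0.36 ± 0.23 and the long-form value -0.18 ± 0.21 as given by the authors' deposited table for each.

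By the same implied levels, the leading gene of the JUN family was JUNB in A-375 and JUN in UM-UC-3. JUNB held 57.6% and JUND 34.7% of JUN-family counts per kilobase in the A-375 total-table controls, where JUN held 7.68%. In UM-UC-3 controls JUN held 68.8%, JUND 21.2% and JUNB 9.98%. In the knockouts the JUN share was 9.58% for the A-375 total and 74.5% for the UM-UC-3 table. The order of the 3 genes was JUNB, JUND, JUN in both groups of both A-375 tables and JUN, JUND, JUNB in both groups of UM-UC-3. Whether neighbours in these orders differ beyond their spread between libraries cannot be said, because the implied levels have no error.

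EGR1 (chromosome 5, 138465490 to 138469315), a zinc finger factor switched on through SRF and ETS cofactors, had large estimates and large errors. Its log2 change was 0.81 ± 0.61 for the A-375 total, -0.86 ± 0.71 for the long-form and -1.11 ± 0.63 for the UM-UC-3 knockout (authors' deposited table for each, adjusted p 0.412, 0.665 and 0.169). Its SE stood at the 89.3, 94.3 and 96.5 percentiles of all genes, although its mean count was at least 3761 in each table. None of these values was called, and the UM-UC-3 interval spans 0.196-fold to 1.09-fold.

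IER2 (chromosome 19, 13150415 to 13154908) is a short nuclear protein gene 357.1 kilobases from JUNB. The promoter stretch printed for it holds 2 matches to the ETS site CGGAAG. IER2 had the smallest SE of the 10 in both A-375 tables. It fell by 0.41 ± 0.15 on the log2 scale in UM-UC-3 (authors' deposited table, adjusted p 0.0205), to 0.75 of the control. In the long-form knockout the log2 change was -0.35 ± 0.17, with an unadjusted p of 0.0333 and an adjusted p of 0.413 by the authors' deposited table. The A-375 total knockout gave -0.08 ± 0.16 by the authors' deposited table, an interval of 0.762-fold to 1.17-fold.

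IER3 (chromosome 6, 30743199 to 30744554), a short-lived protein that modulates ERK and NF-kB signalling and cell survival, gave the widest range of the 10. In the A-375 long-form knockout it fell by 1.69 ± 0.36 on the log2 scale (authors' deposited table, adjusted p 0.00126), to 0.310 of the control. In the A-375 total knockout its log2 change was 2.30 ± 0.87, with an unadjusted p of 0.00806 and an adjusted p of 0.0638 by the authors' deposited table. The deposited q-value of that entry was 0.0359, so the call depends on which of the authors' columns is read (15.2% of all genes had a q-value under 0.05). UM-UC-3 gave 0.32 ± 0.32 (authors' deposited table, adjusted p 0.471). IER3 was a low-abundance transcript in A-375. Its implied level with parental controls was 39.4 normalized counts in controls and 194 in the knockout of the A-375 total table, and 131 and 40.6 in the long-form table. With all control libraries counted, the same levels were 47.5 and 234, and 104 and 32.2. Its mean count of 85.8 in the long-form table lies just under the higher minimum of 100 that was tried. Exons of antisense genes overlap IER3 by 359 bases and IER2 by 629 bases, and the antisense genes were not analysed here.

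**Figure D4:**
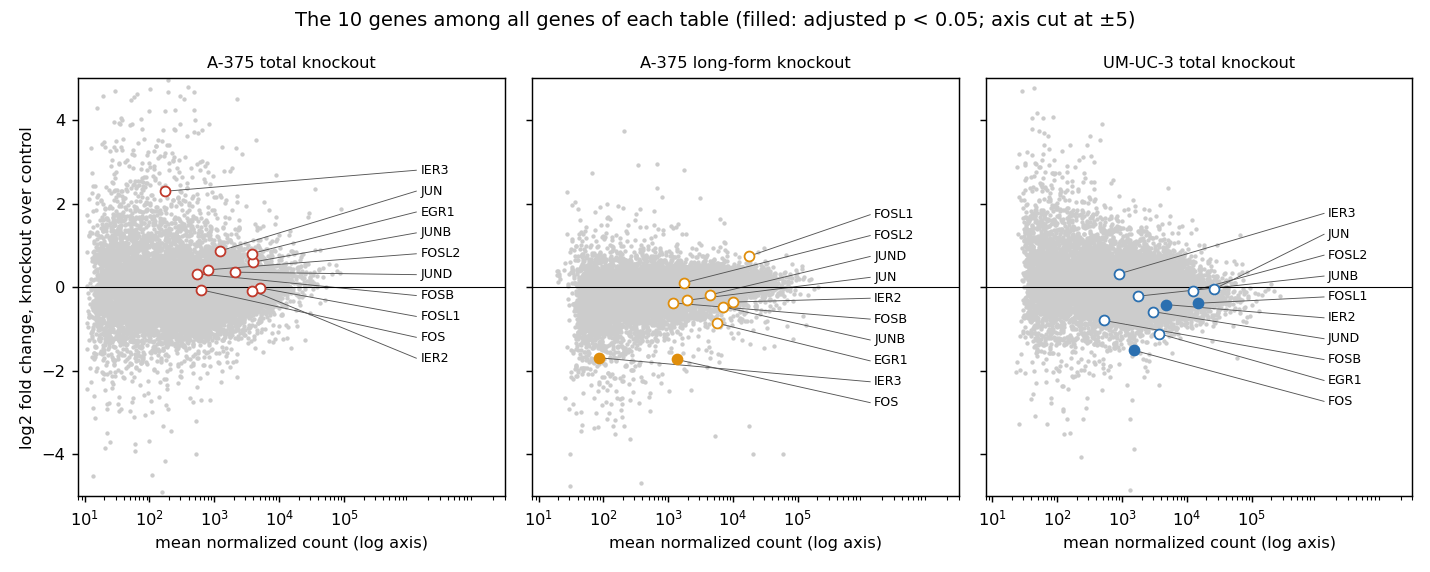
Mean normalized count (log axis) against log2 fold change of knockout over control for all genes with a mean of at least 10 (grey) and the 10 named genes (coloured; filled where adjusted p is under 0.05) in the 3 tables. IER3 and FOS are the filled points of the long-form panel, at -1.69 and -1.73, while the 10 genes of the A-375 total table are unfilled.

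The difference between cell lines was tested for each gene by subtracting the UM-UC-3 log2 change from that of A-375 and dividing by the combined SE, with Benjamini-Hochberg adjustment over 12641 genes. With this z test 0 of 10 genes differed at an adjusted p of 0.05 (10.4% of all genes did), and 4 of 10 had an unadjusted p under 0.05 (25.6% of all genes). All 10 estimates were more positive in A-375 than in UM-UC-3, where 43.0% of all genes had that sign, but the members are not independent of each other. JUND came nearest, with log2 changes of 0.36 in A-375 and -0.58 in UM-UC-3 and a difference of 0.95 ± 0.34 (adjusted p 0.052, and 0.0322 once each table was centred on its median). EGR1 differed by 1.92 ± 0.88 (adjusted p 0.14), IER3 by 1.97 ± 0.92 (0.152) and JUN by 0.91 ± 0.44 (0.164). For FOS, called in UM-UC-3 and not in the A-375 total knockout, the difference was 1.45 ± 0.78 (adjusted p 0.226), so the 2 lines were not shown to differ. The 95% interval of that difference ran from -0.09 to 2.98.

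The same test between the A-375 long-form and total knockouts, over 13950 genes, called IER3 alone of the 10 (4.45% of all genes were called). The long-form value was lower by 3.99 ± 0.94 on the log2 scale, a 15.8-fold gap (adjusted p 0.00278). If these tables share control libraries, the SE of the difference is too large. IER3 had the lowest mean count of the 10 in both A-375 tables, and once genes with a mean under 100 in either table are left out it was not tested. For FOS the long-form value was lower by 1.67 ± 0.64 (unadjusted p 0.00897, adjusted p 0.111), so FOS was not shown to differ between the A-375 knockouts. JUNB was lower by 1.07 ± 0.44 (adjusted p 0.148) and JUN by 1.18 ± 0.59 (adjusted p 0.256) in the long-form knockout.

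Other immediate early genes, from a list of 39 measured names, were mostly higher where called in the total knockouts. In the A-375 total knockout 6 of 39 rose and 1 fell (5.07% and 5.74% of all genes), with a median log2 change of 0.32. EGR2, a relative of EGR1, rose by 3.69 ± 1.06 (adjusted p 0.0102) and EGR4 by 3.44 ± 0.81 (adjusted p 0.00108), both from the authors' deposited table. EGR4 had an implied control level of 1.96 normalized counts, so the size of its rise is poorly set. CSRNP1, a nuclear protein, rose by 1.26 ± 0.35 (authors' deposited table, adjusted p 0.00687) and the growth inhibitor BTG2 by 1.13 ± 0.32 (authors' deposited table, adjusted p 0.00977). EGR1 itself, with an implied 2289 normalized counts in controls and 4007 in the knockout, was not called.

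In UM-UC-3, 12 of 35 other immediate early genes rose and 2 fell (17% and 14.2% of all genes), with a median of 0.38, while FOS, FOSL1 and IER2 fell. The antiproliferative gene BTG1 rose by 1.27 ± 0.16 (adjusted p 2.31e-13) and the bZIP repressor NFIL3 by 1.41 ± 0.22 (adjusted p 8.05e-09) by the authors' deposited table. The orphan receptor NR4A3 rose by 3.31 ± 0.68 (authors' deposited table, adjusted p 2.33e-05), from an implied control level of 8.38 normalized counts. KLF2, a Krüppel-like factor, fell by 1.17 ± 0.25 on the log2 scale (authors' deposited table, adjusted p 3.48e-05). In the long-form knockout 0 of 38 rose and 1 fell (0.24% and 0.664% of all genes). That gene was DUSP1, the early-induced MAP kinase phosphatase, which fell by 0.61 ± 0.15 on the log2 scale (authors' deposited table, adjusted p 0.00912).

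**Figure D5:**
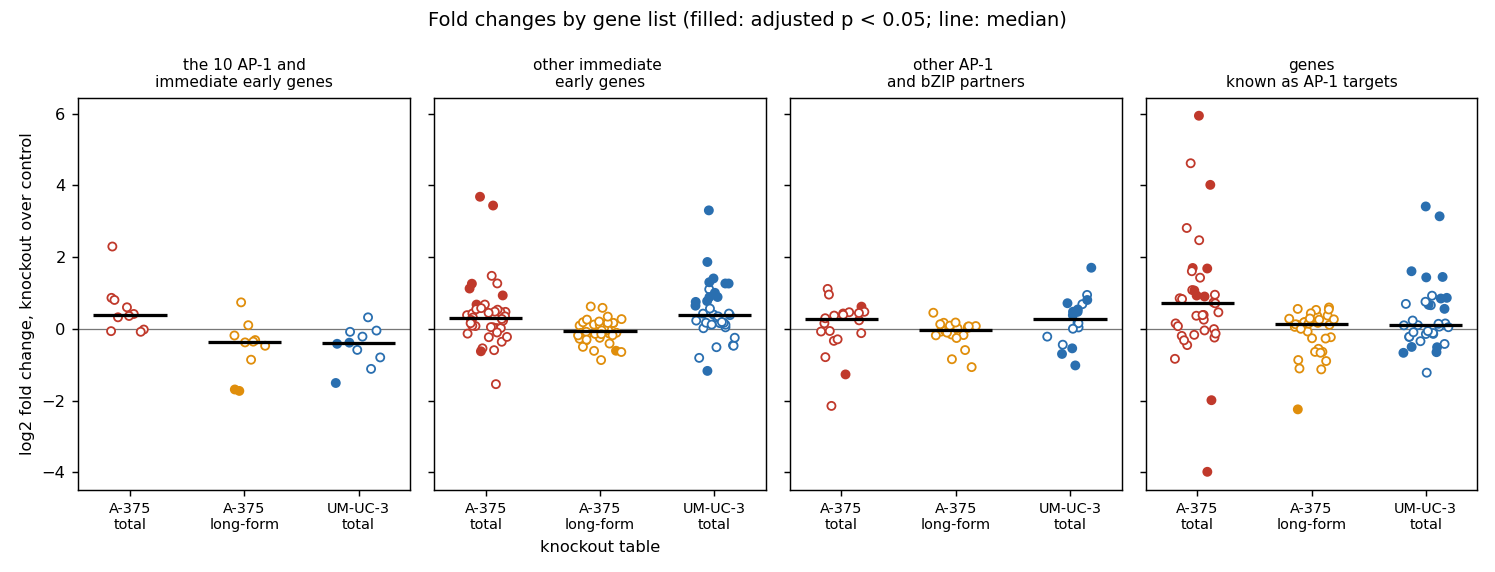
Log2 fold change of knockout over control for the 10 genes, other immediate early genes, other AP-1 and bZIP partners and genes known as AP-1 targets, in each of the 3 tables; each point is a gene, filled where adjusted p is under 0.05, spread sideways at random, and the line is the list's median. The medians of the 10 genes are 0.39, -0.37 and -0.40, and those of other immediate early genes 0.32, -0.06 and 0.38.

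Of 18 bZIP genes measured in UM-UC-3 whose proteins can pair with FOS or JUN proteins or compete for their sites, 7 rose, 3 fell and 8 were not called (17% and 14.2% of all genes were called higher and lower), with a median of 0.28. CREB1, which binds the CRE, rose by 0.81 ± 0.17 (adjusted p 6.33e-05), ATF2, a JUN partner at CRE sites, by 0.72 ± 0.17 (0.000218) and its paralog ATF7 by 0.48 ± 0.12 (0.000391) by the authors' deposited table. NFE2L3 fell by 0.70 ± 0.17 on the log2 scale (authors' deposited table, adjusted p 0.000468). Of 20 measured in the A-375 total knockout, 1 rose and 1 fell (5.07% and 5.74% of all genes). MAFG, a small MAF protein, rose by 0.62 ± 0.18 (adjusted p 0.00898) and the repressor BACH2 fell by 1.27 ± 0.45 on the log2 scale (an adjusted p of 0.0441) by the authors' deposited table. In the long-form knockout 0 of 20 were called by the authors' DESeq2 test (0.904% of all genes were).

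Kinases and factors upstream of the immediate early promoters, a list that holds SRF, the ELK cofactors and the MAP kinases, had 2 of 27 members lower and 0 higher in the A-375 total knockout (5.74% and 5.07% of all genes). These were MAP2K5, the kinase of ERK5, at -2.15 ± 0.27 (adjusted p 1.24e-12) and MAP2K6, a kinase of p38, at -2.54 ± 0.52 (adjusted p 9.94e-05) by the authors' deposited table. Among those measured in UM-UC-3, 4 of 25 rose and 2 fell (17% and 14.2% of all genes), a share called of 24.0% against 31.1%. The CREB and histone kinase RPS6KA5 rose by 0.88 ± 0.13 (adjusted p 2.60e-09) and its relative RPS6KA4 fell by 0.50 ± 0.11 on the log2 scale (an adjusted p of 6.17e-05) by the authors' deposited table. MAPK7, which is ERK5, rose by 0.63 ± 0.10 (adjusted p 2.33e-08) while MAP2K5 fell by 1.17 ± 0.21 on the log2 scale (an adjusted p of 1.02e-06) by the authors' deposited table. The authors' DESeq2 test called 0 of 26 in the long-form knockout (0.904% of all genes).

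MAP kinase phosphatases and feedback inhibitors, a list not limited to ERK, were higher in UM-UC-3 where called, 4 of 13 (17% of all genes were called higher), with a median of 0.49. DUSP4, a nuclear MAP kinase phosphatase, rose by 1.45 ± 0.31 (adjusted p 6.87e-05) and SPRED1 by 0.88 ± 0.19 (adjusted p 8.45e-05) by the authors' deposited table. SPRY4 rose by 0.99 ± 0.37 in UM-UC-3 (adjusted p 0.0307) and fell by 1.24 ± 0.40 on the log2 scale in the A-375 total knockout (adjusted p 0.0247) as given by the authors' deposited table for each. DUSP14 was the 1 of 13 that rose in the A-375 total knockout, by 1.03 ± 0.30 (authors' deposited table, adjusted p 0.0118).

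Genes known as AP-1 targets moved in both directions. Where 0 of the 10 members were called, in the A-375 total knockout, 7 of 37 rose and 2 fell (5.07% and 5.74% of all genes), with a median of 0.71. The collagenase MMP1 rose by 4.02 ± 0.94 (adjusted p 0.000915) and the stromelysin MMP10 by 5.94 ± 1.25 (adjusted p 0.000185) by the authors' deposited table. Their implied levels went from 36.1 to 585 normalized counts for MMP1 and from 1.77 to 109 for MMP10, whose fold is poorly set for that reason. S100A6, a calcium-binding protein, rose by 1.07 ± 0.28 (adjusted p 0.00327) and the laminin chain LAMA3 fell by 1.99 ± 0.41 on the log2 scale (an adjusted p of 0.000134) by the authors' deposited table. Among those measured in UM-UC-3, 9 of 34 rose and 4 fell (17% and 14.2% of all genes, median 0.10), and MMP1 rose there too, by 3.14 ± 0.89 (authors' deposited table, adjusted p 0.00272). HMOX1, also a target of NRF2, rose by 1.61 ± 0.24 (adjusted p 1.29e-09) and the receptor kinase AXL fell by 0.65 ± 0.10 on the log2 scale (an adjusted p of 3.34e-08) by the authors' deposited table. In the long-form knockout 1 of 34 fell and 0 rose (0.664% and 0.24% of all genes). That was PLAU, the urokinase gene, at -2.24 ± 0.63 (authors' deposited table, adjusted p 0.0421).

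IER3 had the smallest adjusted p of the 10 in any table. The genes most like it over the 3 log2 changes were looked up among 10503 genes with a mean count of at least 100 in each table. IER3 itself, with a mean of 85.8 in the long-form table, lies under that minimum. Among the nearest was SLC1A2, a glutamate transporter, at a root mean square distance of 0.35 on the log2 scale, with changes of 1.85, -1.53 and -0.05 for the A-375 total, long-form and UM-UC-3 knockouts as given by the authors' deposited table for each. AATF (distance 0.41), GTPBP6 (0.47) and CTNND2 (0.53) followed. Their rise in the A-375 total knockout and fall in the long-form knockout follow from the choice by likeness to IER3. These 4 genes were called higher in the A-375 total knockout (5.07% of all genes). CTNND2 alone of them was called lower in the long-form knockout (authors' deposited table, adjusted p 0.0029), as were 0.664% of all genes. The likeness rests on 3 values per gene and is given as a description.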

How the data were processed

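Libraries were made from RNA with a stranded mRNA kit, per the labels' protocols. The submitters' processing notes list the build hg38 and, with neither version nor order, the tools DESeq2, StringTie, SAMtools and HISAT2. The deposited signal column is the authors' base mean over all samples of a fit, per the file headers, which DESeq2 defines as the mean of counts divided by size factors. The log2 columns hold the authors' fold change and its standard error, the score column their Wald statistic, and the p-value columns a p, a q-value and the Benjamini-Hochberg adjustment, per the file headers. Recomputed adjusted p-values differed from the deposited ones by at most 6.98e-05. The sources used here give no annotation, gene filter or design formula.

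The members and lists were chosen with earlier results of these data known, and the motifs were chosen after the values were seen. Named genes are the 10 members, up to 4 called genes with the smallest adjusted p per list and table, and the 5 genes nearest to the member with the smallest adjusted p, of which some are not reported here. Group levels assume the parental libraries (2 in A-375, 1 in UM-UC-3) or all controls (6 and 4), and lengths are the longest principal transcripts with a RefSeq match in GENCODE release 29. Intervals are 95% normal intervals from the SE. Python 3.11.15, numpy 2.4.6, pandas 2.3.3 and scipy 1.17.1 were used. No count table was used, so no other count model was fitted.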

Additional observations from a re-analysis of the deposited data

Results flagged for a closer look

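IER3 was picked out because its response differed between the 2 A-375 knockouts by a test of the difference itself. The long-form log2 change (-1.69) lay 3.99 below that of the total knockout (2.30), a difference of -3.99 ± 0.94 (z test, Benjamini-Hochberg adjusted p 0.00278 over 13950 genes). The total-knockout value was not itself called. The long-form arm holds 2 libraries, and no value per library was used here.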

How the results depend on the processing

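Leaving out single libraries was not possible, because the tables hold 1 fitted value per gene. No paired analysis was possible because the tables carry no value per library. In the A-375 total knockout, members called higher went from 0 to 1 (IER3) with the q-value and with an adjusted p under 0.1. In the long-form knockout, members called lower went from 2 to 1 when genes with a mean count under 100 were left out, which removes IER3 by construction. In UM-UC-3, members called lower went from 3 to 0 at an adjusted p under 0.01 and to 1 (FOS) with a 2-fold minimum. Members that differ between the cell lines went from 0 to 1 (JUND) with a mean of at least 100 (adjusted p 0.0481), after centring (0.0322) and at an adjusted p under 0.1. The difference of IER3 between the A-375 knockouts could not be tested with a mean of at least 100, leaving 0 members. After centring, FOSL1 in the A-375 total knockout turned from -0.02 to 0.035 on the log2 scale, within its SE of 0.37. Among the members' fold changes under the alternatives, 168 values kept their direction and side of the threshold. Of the rest, 5 newly passed it, 5 no longer passed and 1 changed sign. Only centring alters the fold change, so the other settings could not change a direction. A stricter threshold also cannot newly call a gene, nor a looser one drop it. Much of the 168 was therefore fixed in advance and is no measure of stability. Implied levels moved on the log2 scale by less than the SE of the fold change in 60 of 60 cases with all controls in place of the parental ones. That SE is not an error of the level, so a gene with a large SE passes easily. FOS in UM-UC-3 is among the 60, with a control level of 3622 or 2738 and an SE of 0.59.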

Other observations

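Genes that set the turnover or activity of AP-1 proteins had 0 of 14 members higher and 3 lower in the A-375 total knockout (5.07% and 5.74% of all genes). DCAF7, a scaffold of DYRK kinases and cullin ligases, fell by 0.44 ± 0.12 on the log2 scale (an adjusted p of 0.00758) and the cullin CUL4A by 0.50 ± 0.17 (adjusted p 0.0375), both from the authors' deposited table. Among those measured in UM-UC-3, 3 of 14 rose and 2 fell, a share called of 35.7% beside 31.1% of all genes (17% higher and 14.2% lower), so the list was near the background. DET1, which acts together with the COP1 ligase, rose by 1.05 ± 0.24 (authors' deposited table, adjusted p 0.000186). The corepressor TGIF1 rose by 1.21 ± 0.23 (adjusted p 3.51e-06) and the coactivator NCOA1 by 0.47 ± 0.14 (adjusted p 0.00501) by the authors' deposited table. DCAF7 also fell in UM-UC-3, by 0.46 ± 0.11 on the log2 scale (authors' deposited table, adjusted p 0.000449). The authors' DESeq2 test called 0 of 14 in the long-form knockout (0.904% of all genes).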
